A study of Rattus norvegicus with 6 samples.

Results

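Ptgs2 (ENSRNOG00000002525) is the rat gene for prostaglandin-endoperoxide synthase 2, also called cyclooxygenase 2 or COX-2. It was followed here as 1 gene of the 34052 features in the deposited table, and was picked out by its Ensembl ID, whose pairing with the symbol was taken as given. No measured value entered the rule, but Ptgs2 was chosen with earlier results of these data known. The study measured the poly(A) RNA of neonatal rat ventricular cardiomyocytes, cultured heart muscle cells taken from newborn rat ventricles. Control cells (3 libraries) were compared with cells given 10 µM erastin for 24 h (3 libraries). The file that holds the values calls the control arm vehicle, and no genotype, strain or other agent is given for either group. Whether libraries within a group stem from different cultures or litters is not stated, and the p-values therefore reflect the spread between libraries, possibly a technical one.

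Cyclooxygenases turn arachidonic acid, released from membranes by phospholipases, into prostaglandin H2, from which the prostaglandins, prostacyclin and thromboxane are made. The paralog Ptgs1 is expressed at a steady level in many tissues, whereas Ptgs2 is low in most resting cells and is induced by cytokines, growth factors and stress. Erastin blocks the cystine/glutamate antiporter, which lowers glutathione and is used to trigger ferroptosis, an iron-dependent cell death with lipid peroxidation. A rise of Ptgs2 mRNA is widely used as a marker of ferroptosis in cells and tissue, and the comparison asks how that marker behaved in these cardiomyocytes.

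Ptgs2 mRNA was about 4.51-fold higher in erastin than in control libraries, in FPKM. This unit is fragments per kilobase of the feature and per 1000000 of the library total. Control libraries were at 2.12 ± 0.461 FPKM (SD, n = 3), and erastin libraries reached 9.56 ± 1.14 FPKM (SD, n = 3). The transcript was thus detected in every control library, at a low level, and reached a middling level with erastin. In control libraries the 3 values were 2.19, 2.55 and 1.63 FPKM in replicates 1, 2 and 3. In erastin libraries they were 8.80, 10.9 and 9.0 FPKM in replicates 1, 2 and 3. The groups did not overlap, and the lowest erastin library was 3.46-fold above the highest control library. Of the 9 pairs of 1 erastin and 1 control library, 7 differed by more than 4-fold, and the largest ratio was 6.67.

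**Figure D1:**
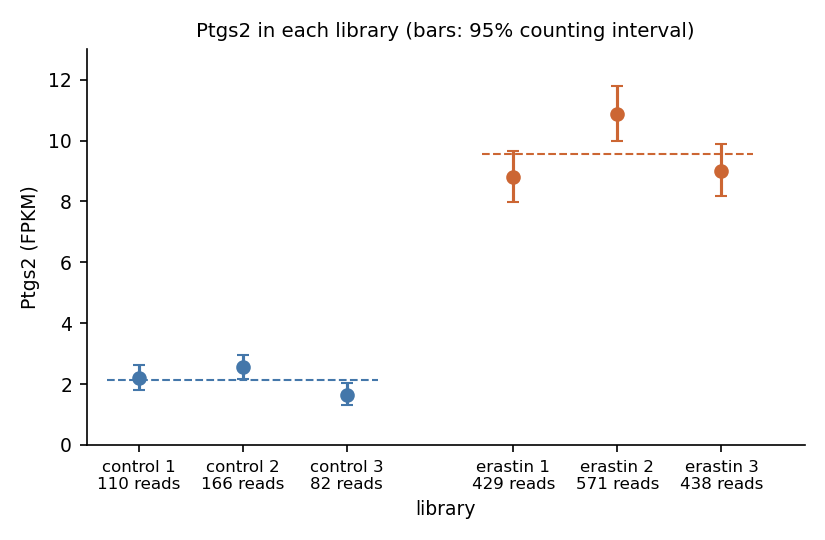
Ptgs2 level in FPKM (vertical axis, from 0) in each of the 3 control and 3 erastin libraries; bars are 95% Poisson intervals from the recovered reads, which are written under each library, and dashed lines are group means. All 3 erastin libraries, at 8.80 to 10.9 FPKM, lie above all 3 control libraries, at 1.63 to 2.55 FPKM.

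These levels rest on moderate read numbers. The reads behind Ptgs2, recovered from the steps of the FPKM values, were 110, 166 and 82 in control replicates 1, 2 and 3. In erastin replicates 1, 2 and 3 they were 429, 571 and 438, out of library totals of 11126968 to 14914827 reads. As a share of the library, Ptgs2 took 9.27 ± 2.02 reads per 1000000 library reads (SD, n = 3) in control and 41.8 ± 4.98 reads per 1000000 library reads (SD, n = 3) in erastin libraries. The exact 95% Poisson intervals, which cover counting error only, ran from 1.30 to 2.02 FPKM in control replicate 3, the lowest library, and from 2.17 to 2.96 FPKM in control replicate 2, the highest control. The lowest erastin library, replicate 1, had an interval from 7.99 to 9.67 FPKM. Counting error therefore leaves a wide gap between the groups, but it does not cover the spread within them. The variance of the reads was 5.53 times what counting alone gives among control and 6.93 times among erastin libraries.

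The difference passed the test across all features. On the log2(FPKM + 1) scale the log2 fold change was 1.76 (SE 0.128, 95% interval 1.47 to 2.06), with a Benjamini-Hochberg adjusted p of 8.42e-06 in limma, and Ptgs2 was higher in 3 of 3 erastin libraries. This scale understates the change of a gene at a low level. The voom method of limma, applied to the recovered reads without that pseudocount, gave a log2 fold change of 2.16 (SE 0.157), which is 4.48-fold with a 95% interval of 3.50-fold to 5.73-fold, at an adjusted p of 7.7e-07. By voom, 43.8% of the features with recovered reads were called higher with erastin. For Ptgs2 alone, an exact two-sided permutation test over the 6 libraries gave p = 0.1, the smallest that 3 against 3 libraries allow.

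A call as such was common in this comparison, so the size of the change says more about Ptgs2 than the call. Of 13576 tested features, 42.3% were higher with erastin at an adjusted p under 0.05 in limma (5744 features) and 24.1% were lower (3267 features), 66.4% in either direction. In 45.7% of the tested features, as in Ptgs2, all 3 erastin libraries lay above all 3 control libraries. A rise as large as that of Ptgs2 was rare, with 144 features (1.06%), Ptgs2 among them, called at a log2 fold change of at least 1.76. Ptgs2 ranked 154 of 13576 by its log2 fold change and 172 by the ratio of mean FPKM. By adjusted p it stood less far out, since 11.8% of the tested features had one as small or smaller. The median feature shifted by 0.13 on the log2 scale, and with every library centred at its own median log ratio Ptgs2 had a log2 fold change of 1.64. Centring moves every log2 fold change by the same amount, so the rank of Ptgs2 cannot change with it, and the split of all calls, 4253 higher and 4287 lower, follows from its construction.

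**Figure D2:**
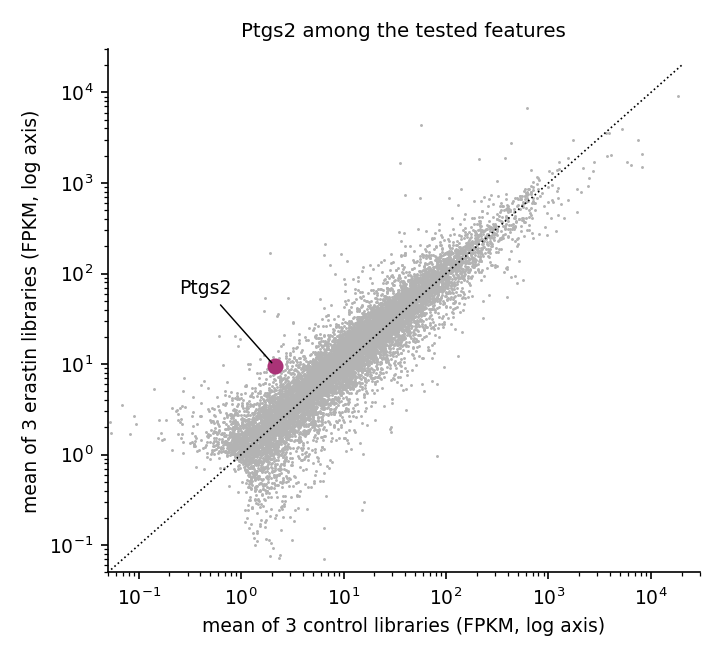
Mean FPKM of the 3 erastin libraries (vertical, log axis) against mean FPKM of the 3 control libraries (horizontal, log axis) for tested features with both means at or above 0.05 FPKM; the dotted line marks equal levels. Ptgs2, at 2.12 FPKM in control and 9.56 FPKM in erastin libraries, lies near the upper edge of the features with a like control level.

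Erastin moved Ptgs2 from the low end of the expressed genes towards their middle. In control libraries 14.4% of the tested features had a lower mean level, and in erastin libraries 42.2% had. The median tested feature was at 11.5 FPKM in control and 12.9 FPKM in erastin libraries, so Ptgs2 stayed below the median level in both groups. Among all features above 0 in a library, Ptgs2 ranked 11184 to 12274 by FPKM in the control libraries and 7413 to 8087 in the erastin libraries. The ranges of ranks did not overlap, as the FPKM values of the same libraries did not. By FPKM, such a separation with erastin on top was seen in 45.7% of the tested features. The share by rank was not computed.

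Features that started from a like control level seldom rose as far, and the same held for the tested features at large. Control means within 1.2 times that of Ptgs2, from 1.77 to 2.54 FPKM, were found in 851 other tested features. Of these, 189 (22.2%) were higher and 213 were lower with erastin at an adjusted p under 0.05 in limma, and their median ratio of mean FPKM was 0.994. In 226 of them (26.6%) all 3 erastin libraries lay above all 3 control libraries. The median SE of the log2 fold change was 0.116 in the 851 features and 0.0707 over all tested features. A larger ratio than that of Ptgs2 was reached by 11 of the 851, up to 88.2-fold. This is close to the share over all tested features, where Ptgs2 ranked 172 of 13576 by the ratio. Control libraries varied more in Ptgs2 than in most of the 851, with a coefficient of variation of 21.8% against a median of 12.9%. Of the 851, 23.5% varied more than Ptgs2. In erastin libraries the coefficient of variation of Ptgs2 was 11.9%.

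Within each group replicate 2 was the highest library for Ptgs2, and no single library decided the difference between the groups. Leaving out control replicate 3, the lowest control, gave a ratio of mean FPKM of 4.04, and leaving out control replicate 2, the highest, gave 5.01. The log2 fold change was 1.65 and 1.86 in the same order. Leaving out an erastin library gave ratios between 4.20 and 4.69. With any single library left out, Ptgs2 was higher with erastin at a limma adjusted p of 2.99e-05 to 9.31e-05.

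**Figure D3:**
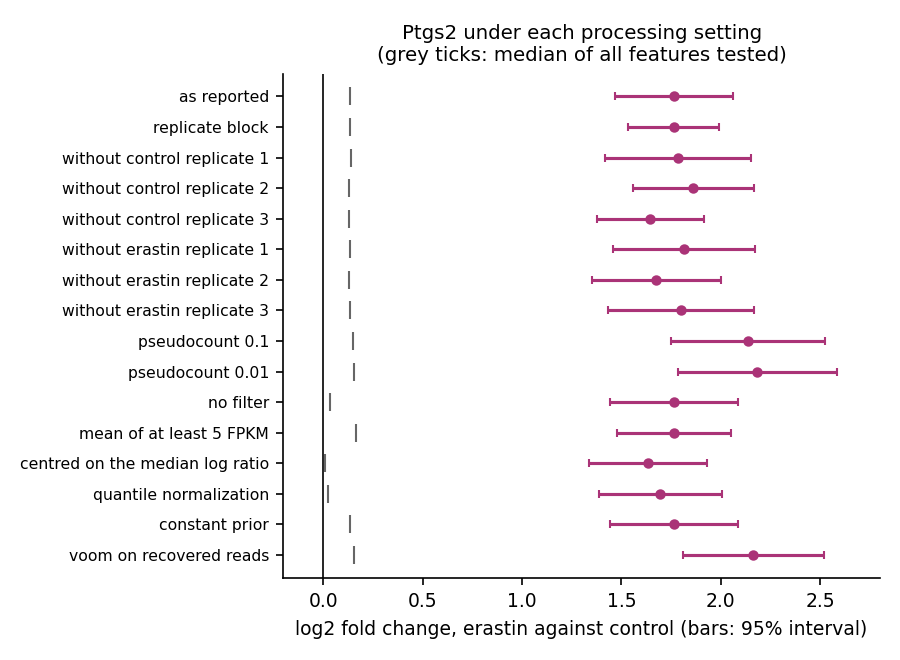
Log2 fold change of Ptgs2, erastin against control, with its 95% interval (horizontal axis) under each processing setting (rows); grey ticks mark the median log2 fold change of all features tested under that setting. The Ptgs2 values lie between 1.64 and 2.18, and no interval reaches 0 or the median of all features tested.

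Many features had a profile over the 6 libraries close to that of Ptgs2. Those to name were sought among 87 Ensembl-numbered features with a mean level at or above the median of 12.5 FPKM and a log2 fold change within 0.25 of that of Ptgs2, and ranked by Pearson's r on log2(FPKM + 1). Within this window the highest r was that of ENSRNOG00000033433 (r = 0.997 over 6 libraries), at 11.5, 12.3 and 9.94 FPKM in control replicates 1, 2 and 3 and at 35.7, 39.7 and 38.5 FPKM in erastin replicates 1, 2 and 3. Next came ENSRNOG00000010819 (r = 0.995), at 5.16, 5.92 and 4.98 FPKM in control and 20.5, 23.1 and 18.8 FPKM in erastin replicates 1, 2 and 3. Both shared with Ptgs2 a highest value in replicate 2 and a lowest control value in replicate 3. ENSRNOG00000033433 also shared the lowest erastin value in replicate 1. Choosing by r over the same 6 libraries favours such a shared order, so it is no separate result. Because the window on fold change selects for a like difference between groups, high r values are common here: the median over the 87 features was 0.983. Without the window on level and fold change, 48 tested features, ENSRNOG00000033433 included, had an r with Ptgs2 at least as high as 0.997. All points share the same 6 libraries and their totals. The sources used here do not pair these IDs with gene names.

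**Figure D4:**
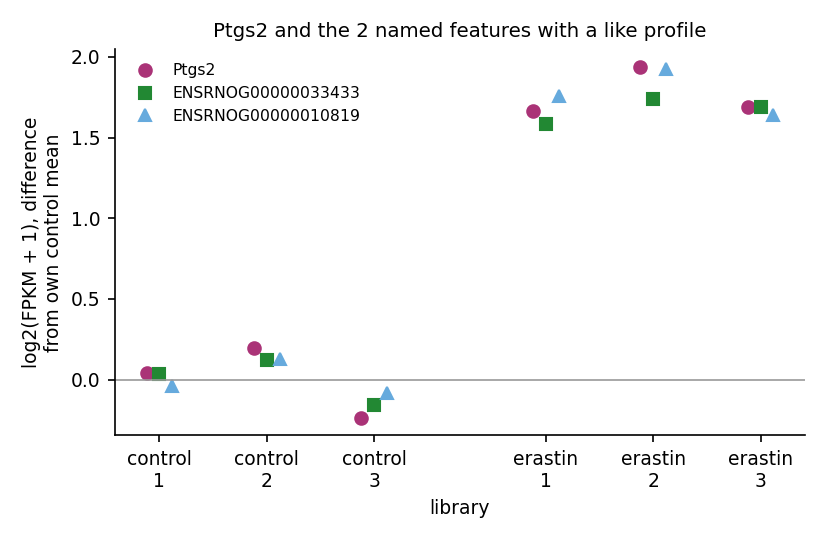
Log2(FPKM + 1) of Ptgs2 (circles), ENSRNOG00000033433 (squares) and ENSRNOG00000010819 (triangles) as the difference from each feature's own control mean (vertical axis), in each control and erastin library (horizontal axis). The 3 features rise by about the same amount, as the window on fold change requires, with log2 fold changes of 1.76, 1.67 and 1.78. Replicate 2 is the highest library in each group, an order that choosing by r favours.

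The start of Ptgs2 is shown for the sequence that precedes the transcript whose level rose. The 250 bases upstream of the RefSeq start, at chr13:64713813-64714062 of GRCr8, plus strand, were read from the RefSeq promoter table, where Ptgs2 was found by its symbol. The genome build behind the deposited values is not given in the sources used here. Capitals mark matches to 5 motifs searched on both strands, chosen with this sequence in view.
Ptgs2 upstream: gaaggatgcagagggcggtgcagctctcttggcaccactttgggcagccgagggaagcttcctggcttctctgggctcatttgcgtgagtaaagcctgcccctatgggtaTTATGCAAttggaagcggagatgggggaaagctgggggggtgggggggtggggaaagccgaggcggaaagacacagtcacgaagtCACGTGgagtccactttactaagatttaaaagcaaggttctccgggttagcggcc

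The upstream stretch held 1 match to a C/EBP-type motif (TTNNGCAA), starting 140 bases before the transcript start, and 1 E-box (CACGTG), starting 55 bases before it. C/EBP and E-box factors are known regulators of the Ptgs2 promoter. Of 33469 upstream stretches of the same length in the RefSeq table, 9.2% held the C/EBP-type motif and 5.6% the E-box. Exact matches to the searched letters of the cAMP response element core (TGACG, in 18.2% of the stretches), AP-1 (TGANTCA, 6.3%) and the TATA box (TATAAA, 12.9%) were not in this window. Variants of these letters were not searched, so the absence of such elements is not shown. The matches do not overlap. They describe letters only, and no factor binding or chromatin state was measured in these libraries.

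The libraries hold the RNA of whole cultures, so a change in the number of cells that express Ptgs2 and a change of its mRNA per cell cannot be told apart. The reference table pairs 0 of the table's IDs with symbols, and for this reason Ptgs1, the prostaglandin synthases and receptors, other ferroptosis genes and the markers of cardiomyocytes, fibroblasts, endothelial cells, smooth muscle cells and macrophages were not analysed here. The part of other cell types in the Ptgs2 values was not tested. COX-2 protein, prostaglandins and cell death were not measured in these files.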

How the data were processed

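The authors deposited 1 table of FPKM, with 1 column for each of the 6 libraries and 34052 features. Libraries were strand-marked and sequenced in pairs on an Illumina NovaSeq, per the labels' protocols. HISAT2 2.0.5 and DESeq2 are named without a role, per the submitters' processing notes. How reads were counted, on which build and with which annotation is not given in the sources used here. Since FPKM divides by the total, large changes of abundant features move the remaining values.

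Samples were grouped by title. A feature entered the test when 3 or more libraries reached 1 FPKM, which held for 13576. The test was limma 3.58.1 (R 4.3.3) on log2 values with a pseudocount of 1. Its prior was robust and followed the trend with level, and p-values were adjusted by Benjamini-Hochberg with a threshold of 0.05. Reads were recovered as whole multiples of a step set by the feature's length and the library total. Within a relative tolerance of 1e-09, 98.4% of the tested values above 0 came out whole, and the length counted for Ptgs2 was 4373 bases. Recovery was tried on all features and succeeded for 13355 of the tested ones, which the second test, limma's voom, used. The limma test was also run on simulated reads with known changes. Their spread was set lower than that of Ptgs2 here, and no result rests on that run. Python 3.11.15 with scipy 1.17.1 gave intervals and the permutation test. Pairs of libraries within a group differed by more than sampling noise, and none was counted as a copy. Chi-square per feature had a mean of 2.86 to 5.34 and a median of 0.60 to 0.77. Features with large values raised the mean. The median was also above what sampling noise alone gives for such a chi-square, so the excess was not limited to those features.

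Ptgs2, the rules and the gene lists were chosen with earlier results of these data known. By the rule for naming, Ptgs2 and the 2 features with the highest r within a window of level and fold change are printed; the lists could not be used without gene names.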

Additional observations from a re-analysis of the deposited data

How the results depend on the processing

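Across 16 alternatives Ptgs2 kept its direction and its side of the threshold. The log2 fold changes were 1.64 (centred) to 2.18 (pseudocount of 0.01), and the limma adjusted p was 7.7e-07 to 9.44e-05. The replicate block, the changed filters, the constant prior and the threshold of 0.01 cannot move the log2 fold change, which stayed at 1.76. The threshold of 0.01 was applied to the reported fit itself. Leaving out 1 library gave 1.65 to 1.86. Calls over all features numbered 9011, and 7230 to 9308 under the alternatives. The rank of Ptgs2 by log2 fold change, 154 as reported, was 199 and 247 with pseudocounts of 0.1 and 0.01, 139 to 203 with 1 library left out (203 without control replicate 3, 197 without erastin replicate 2) and 128 with voom. Of the 5 features with the highest r within the window, 4 were among the first 5 with a pseudocount of 0.1 and 2 by root mean square difference. The voom method was planned as a second test. With the replicate block Ptgs2 was at 1.76 on the log2 scale (SE 0.093, limma adjusted p = 3.43e-05), and 8768 features were called. The labels do not pair libraries by number, and the correlations of same-numbered deviations were -0.028, 0.072 and 0.027. The gene lists were not run, for want of gene names. In control libraries the counting error of Ptgs2, an SD of 0.196 FPKM, was below the SD between libraries of 0.461 FPKM.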
